A study of Mus musculus with 5 samples.

Results

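The hypoxia-inducible factors (HIFs) and the proteins that tie them to oxygen were followed in 9 genes: the HIF subunit genes Hif1a, Epas1, Arnt and Arnt2, the asparaginyl hydroxylase gene Hif1an, the ubiquitin ligase gene Vhl, and the HIF prolyl hydroxylase genes Egln1, Egln2 and Egln3. Each is represented by the probe set of the expression array that carries its symbol alone. All 9 were found, each with 1 probe set, among 19938 genes measured. They were chosen by their place in the HIF pathway and with the differences between induced and uninduced arrays already known, including those of Egln3 and Egln1. Differences of the members between groups are therefore a description and are not tested.

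RNA came from mouse embryonic stem (ES) cells, pluripotent cells derived from the blastocyst and here grown with serum and the cytokine LIF. By their titles, both groups carried a Satb1 transgene under a tetO promoter, which is switched on by doxycycline (DOX). The series title instead speaks of WT cells beside the overexpressing ones. The uninduced arrays are taken here as cells of the same transgenic kind without DOX, as titled, and if they were WT cells the comparison would be between different cells. The SATB1 protein organises chromatin at AT-rich sites. The uninduced group, labelled control, had 2 arrays of cells without DOX, and the induced group, labelled Satb1 overexpression, had 3 arrays of cells with 24 h of DOX. Both groups were harvested 48 h after passage. The labels name no separate cultures or clones behind the arrays, so the spread between them may be technical. No DOX-treated cells without the transgene were among the arrays, and an action of DOX itself and of Satb1 cannot be told apart. The treatment protocol names irradiated feeder cells, reduced by settling before RNA preparation, whereas the design text speaks of LIF only.

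In background terms, a HIF is a pair of an oxygen-labile alpha subunit and a stable beta subunit. Among the members, Hif1a and Epas1 (HIF-2 alpha) encode alpha subunits, and Arnt and Arnt2 encode beta subunits. With oxygen present, the prolyl hydroxylases encoded by Egln1 (PHD2), Egln2 (PHD1) and Egln3 (PHD3) hydroxylate the alpha subunit, the VHL protein then binds it, and it is ubiquitinated and degraded. The enzyme encoded by Hif1an (FIH) hydroxylates an asparagine and thereby hinders binding of coactivators. Control of the alpha subunit is thus mostly at the level of protein, which an RNA array does not measure. Egln1 and Egln3 are themselves known HIF target genes, whereas Egln2 is not a typical one.

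HIF binds DNA at a short core motif, written ACGTG or GCGTG. Promoter sequence itself was not used to choose the genes. Egln1 and Egln3 are known HIF target genes, however, so a core in their windows is not independent of that choice. RefSeq (GRCm38.p6) gave promoter windows for 8 of the 9 genes. The 250 bases before each gene start were searched for both forms of the core on both strands. The windows of the 3 prolyl hydroxylase genes and of Hif1a are shown because they cover the genes with lower values on induced arrays, the hydroxylase gene with constant values and the main alpha subunit gene. They read 5′ to 3′ on the strand of the gene, with each ACGTG or GCGTG match, or its reverse complement, in capitals.
Egln3 (chr12:54203875-54204124, minus strand): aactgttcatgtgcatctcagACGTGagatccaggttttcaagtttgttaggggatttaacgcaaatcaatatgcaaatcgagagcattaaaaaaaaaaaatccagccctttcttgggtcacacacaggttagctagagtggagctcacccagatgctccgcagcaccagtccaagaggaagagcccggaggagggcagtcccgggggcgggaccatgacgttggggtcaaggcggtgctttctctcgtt
Egln1 (chr8:124949255-124949504, minus strand): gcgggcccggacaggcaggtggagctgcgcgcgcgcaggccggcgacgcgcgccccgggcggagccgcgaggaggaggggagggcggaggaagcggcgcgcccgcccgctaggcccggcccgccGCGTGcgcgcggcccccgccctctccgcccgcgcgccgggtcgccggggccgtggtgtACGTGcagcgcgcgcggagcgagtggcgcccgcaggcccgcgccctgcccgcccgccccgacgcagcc
Egln2 (chr7:27166803-27167052, minus strand): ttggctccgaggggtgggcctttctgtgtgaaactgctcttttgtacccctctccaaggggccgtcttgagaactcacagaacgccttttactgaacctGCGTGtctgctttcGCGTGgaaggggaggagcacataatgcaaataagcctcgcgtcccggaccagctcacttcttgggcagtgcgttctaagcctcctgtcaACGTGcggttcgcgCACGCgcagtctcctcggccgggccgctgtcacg
Hif1a (chr12:73907617-73907866, plus strand): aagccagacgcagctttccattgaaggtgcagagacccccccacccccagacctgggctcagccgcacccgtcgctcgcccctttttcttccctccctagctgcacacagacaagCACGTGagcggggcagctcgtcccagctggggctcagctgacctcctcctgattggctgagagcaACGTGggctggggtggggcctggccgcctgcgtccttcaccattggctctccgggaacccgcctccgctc

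The Egln1 window held 1 ACGTG, starting 68 bases before the gene start, and 1 GCGTG at 126 bases. The Egln3 window held 1 ACGTG at 229 bases. The Egln2 window shown held 1 ACGTG and 3 GCGTG, and a second Egln2 window held 1 GCGTG. In Hif1a there were 3 ACGTG matches, of which a pair on opposite strands overlap within a single CACGTG. Arnt had 1 GCGTG, and the windows of Arnt2, Hif1an and Vhl had none. Of all 32851 windows of this length, 38.6% held a match to either form (16.6% to ACGTG and 28.2% to GCGTG), so a match in a window is common. By gene, 5 of 8 members (62.5%) and 41.5% of all 27025 genes had a match in at least 1 window. GC content ran from 50.8% in Egln3 to 86% in Egln1, and the shares above are not adjusted for it. Matches were present both in Egln1 and Egln3, lower on induced arrays, and in Egln2 and Hif1a, which were not. These are matches of letters, and binding was not measured. Sequence outside the windows was not searched, so a window without a match does not show that a gene lacks a HIF site.

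The arrays were close to each other, with Pearson's r over genes between 0.9972 and 0.9979 for pairs of arrays, where genes are not independent replicates. Satb1 was higher in induced cells by a log2 difference of 3.55 (adjusted p = 0.0038, limma), the only call among 19938 genes; the call was lost under 6 of 14 other settings given further on. ES cell markers differed from each other in level, and their median log2 difference between the groups was -0.0036. Pou5f1, which encodes the core pluripotency factor OCT4, was at 9.86 and 9.93 on uninduced and 9.92, 9.93 and 9.96 on induced arrays. The lowest of the 8 ES cell markers, Zfp42, was at 6.34 on both uninduced and at 6.35, 6.42 and 6.23 on induced arrays. The mean of 19 fibroblast markers was 5.31 on both uninduced arrays and 5.31, 5.34 and 5.33 on induced arrays. With 5 arrays, precision is limited throughout.

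Among the 9 genes, the prolyl hydroxylase genes Egln3 and Egln1 had lower values on every induced array than on both uninduced arrays. The other 7 members, which are the 4 HIF subunit genes, Hif1an, Vhl and Egln2, did not separate the groups. Across all genes, 3.08% had all induced arrays below both uninduced arrays. The mean was lower in induced cells in 6 members, higher in 2 and the same in 1 (Egln2), beside 45.3% of all genes with a lower and 39.6% with a higher mean. Since the members were chosen with this contrast in view, nothing is read from these shares. In bulk RNA, fewer cells of a type and less RNA per cell cannot be told apart.

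**Figure D1:**
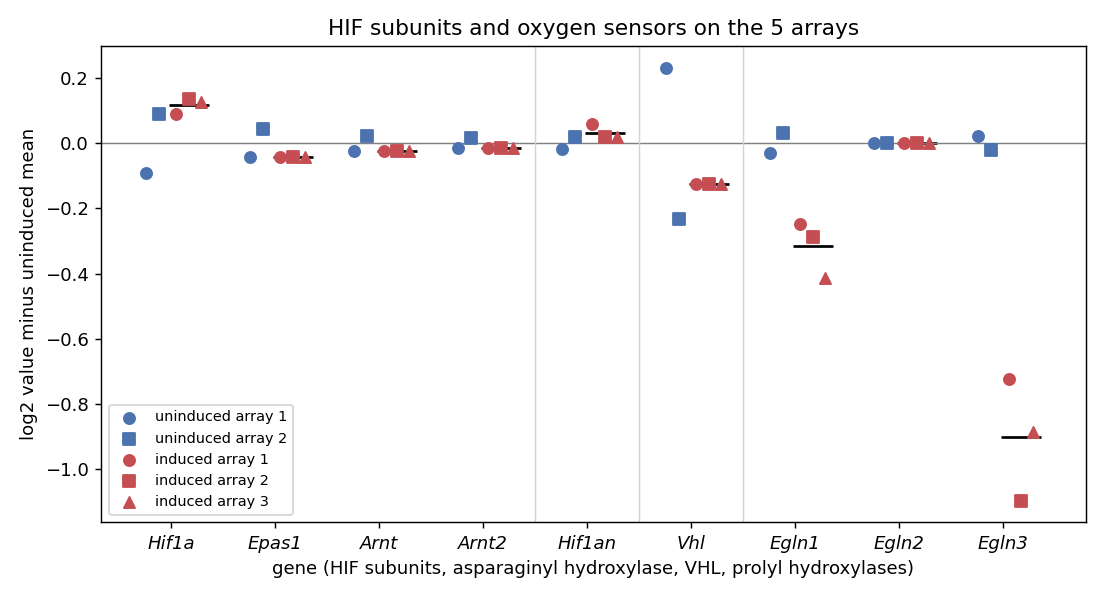
Log2 value of each of the 9 genes on each of the 5 arrays, minus the mean of the 2 uninduced arrays of that gene (vertical axis), with blue points for uninduced and red points for induced arrays and a black bar at the induced mean. Egln3 and Egln1 have all 3 induced points below both uninduced points; Hif1a, Epas1, Arnt, Arnt2, Hif1an, Vhl and Egln2 do not.

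Egln3, whose enzyme PHD3 is known to act strongly on the HIF-2 alpha protein, had log2 values of 6.92 and 6.87 without DOX and of 6.17, 5.80 and 6.01 with DOX. The groups were separated by a gap of 0.70, against a range of 0.04 within the uninduced and 0.37 within the induced group. Induced array 2 was the lowest and induced array 1 the closest to the uninduced cells. The mean went from 6.90 ± 0.03 (SD, n = 2) to 5.99 ± 0.19 (SD, n = 3), a log2 difference of -0.90 (standard error 0.11), or 1.87-fold lower. No other named gene of the 19938 had a more negative difference, and Satb1 alone had a larger one in either direction. Only 6 genes (0.0301%) were lower by 1.5-fold or more, Egln3 among them.

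Egln1 encodes PHD2, regarded as the main enzyme that sets HIF-1 alpha levels at normal oxygen. Without DOX its log2 values were 5.90 and 5.96, and with DOX they were 5.68, 5.64 and 5.52. All induced values again lay below both uninduced values, by a gap of 0.22, with induced array 3 the lowest. The mean went from 5.93 ± 0.04 (SD, n = 2) to 5.61 ± 0.09 (SD, n = 3), a log2 difference of -0.32 (standard error 0.07), or 1.24-fold lower. This was the 85th most negative difference of 19938. Which induced array was lowest was not the same for the 2 genes: array 2 for Egln3 and array 3 for Egln1.

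Egln2, the gene of PHD1, had exactly the same deposited value, 6.68, on all 5 arrays. Such constancy is frequent in these data, found in 15.1% of genes. A difference of 0 for Egln2 therefore sets no bound on a small change.

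Neither HIF alpha subunit gene among the members, Hif1a or Epas1, separated the groups. Hif1a, the gene of the broadly expressed alpha subunit, had log2 values of 7.98 and 8.16 without DOX and of 8.16, 8.20 and 8.19 with DOX. The groups met, because uninduced array 2 and induced array 1 had the same value, and uninduced array 1 alone was lower. The difference was 0.12 with a standard error of 0.07, and it was 0.21 without uninduced array 2 and 0.03 without uninduced array 1. Epas1, the gene of HIF-2 alpha, which is prominent in endothelium, was at 6.58 on uninduced array 1 and on all 3 induced arrays, and at 6.66 on uninduced array 2. Its difference of -0.04 (standard error 0.06) came from that single array and was 0 without it.

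The beta subunit genes showed the pattern of Epas1. Arnt, the gene of the general partner of HIF alpha and of the aryl hydrocarbon receptor, was at 7.84 on uninduced array 2 and at 7.79 on the other 4 arrays. Arnt2, the gene of a partner best known from the nervous system, was at 5.18 on uninduced array 2 and at 5.15 on the others. Their differences were -0.02 and -0.01, with standard errors of 0.06 for both, and each was 0 without uninduced array 2. These errors, and that of Epas1, rest mostly on a spread taken from other genes. Egln2, constant on all arrays, also has a standard error of 0.055. A single higher value on uninduced array 2 with the other 4 arrays identical was found in 534 genes (2.68%), so 3 of the 4 HIF subunit genes share a tie pattern that is also seen elsewhere on these arrays.

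Hif1an and Vhl, which act on HIF alpha beside the prolyl hydroxylases, gave no separation either. Hif1an was at 6.30 and 6.33 without DOX and at 6.37, 6.33 and 6.33 with DOX, which differ by 0.03 (standard error 0.06). Vhl, which encodes the recognition subunit of the ubiquitin ligase, was at 5.52 and 5.05 without DOX and at 5.16 on all induced arrays. The uninduced arrays of Vhl thus lay on either side of the induced ones, 0.46 apart, the widest range within a group among the 9 genes. The difference of -0.12 (standard error 0.14) was 0.11 without uninduced array 1 and -0.36 without uninduced array 2, so its direction rested on single arrays.

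Averaged over genes, the 3 prolyl hydroxylases had mean log2 values of 6.50 and 6.50 without DOX and of 6.18, 6.04 and 6.07 with DOX. For the 4 HIF subunits the means were 6.87 and 6.96 without DOX and 6.92, 6.93 and 6.93 with DOX. The hydroxylase mean was lower on each induced array than on both uninduced arrays, and the subunit means of the induced arrays lay between the uninduced ones. The difference was -0.41 for the hydroxylases and 0.0092 for the subunits, and their contrast was -0.42. It was between -0.46 and -0.38 with any array left out. With the fibroblast marker mean as a covariate it was -0.34. The hydroxylase mean is made of unequal parts, -0.90 for Egln3, -0.32 for Egln1 and 0 for Egln2, so it describes no shared size of change. In the subunit mean, Epas1, Arnt and Arnt2 add no spread among induced arrays, where Hif1a alone varies. As with Egln2, repeated values set no bound on a small change, so neither 0.0092 nor the contrast shows steady subunit levels.

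**Figure D2:**
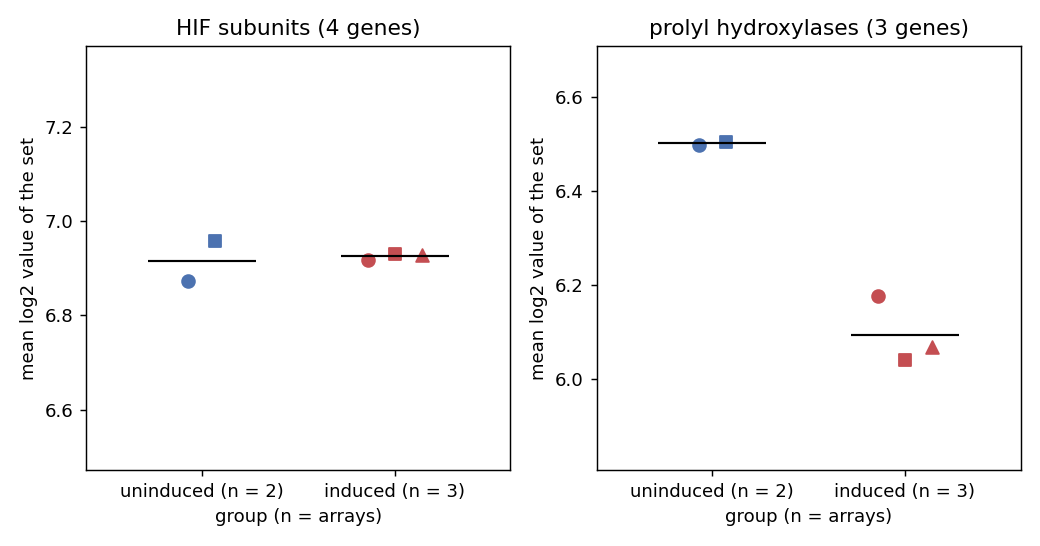
Mean log2 value of the 4 HIF subunit genes (left) and of the 3 prolyl hydroxylase genes (right) on each array, with uninduced arrays in blue, induced arrays in red and a black bar at the group mean; both vertical axes span the same log2 range. The prolyl hydroxylase means are 6.50 on both uninduced arrays and at most 6.18 on induced arrays, while the HIF subunit means of the induced arrays lie between those of the uninduced arrays.

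Genes of other proteins that meet HIF or the VHL ligase had small differences. Of 18 such genes 16 were measured, and none passed the test in either direction (limma, adjusted over all genes; 0 lower and 0 higher at an unadjusted p under 0.05). The share of all genes called was 0% lower and 0.00502% higher, and at the unadjusted level it was 0.772% lower and 0.301% higher. Counts of 0 in a short list therefore say little. Their median log2 difference was -0.01, beside 0 over all genes, with 10 lower, 4 higher and 2 unchanged means. All induced arrays lay below both uninduced arrays in 2 of the 16 genes and above in 0, beside 3.08% and 1.65% of all genes. The values were -0.11 for Cited2, which competes with HIF alpha for the coactivators p300 and CBP, 0.15 for P4htm, a transmembrane prolyl hydroxylase related to the EGLN enzymes, -0.10 for Siah2, a ubiquitin ligase gene acting on prolyl hydroxylases, and -0.07 for Cul2, the scaffold of the VHL ligase. These 4 had the smallest p of the list.

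Enzymes that make or use 2-oxoglutarate, the cosubstrate of the hydroxylases, succinate or fumarate were also measured. None of 15 passed (limma, with 0 lower and 0 higher at an unadjusted p under 0.05), and the median difference was -0.0058. Of all genes, 0.772% were lower and 0.301% higher at that level, and 0% and 0.00502% passed. Counts of 0 in this short list and in the next one therefore say little. The most negative difference was -0.08, in Idh3b, a subunit gene of mitochondrial isocitrate dehydrogenase, and Suclg1, Sdha and Idh1 were at -0.06, -0.06 and -0.04. Among 10 measured bHLH-PAS genes, the family of Hif1a and Arnt, none passed (0 lower and 0 higher at an unadjusted p under 0.05) and the median difference was 0. Ahr, the gene of the aryl hydrocarbon receptor, which pairs with ARNT, was at 0.08, Sim1 at 0.04, and Npas1 and Npas4 at -0.09 each. In both lists all induced arrays lay below both uninduced arrays in 0 genes and above in 0, beside 3.08% and 1.65% of all genes.

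HIF target genes other than the members had lower means in induced cells. Of 26 listed genes 25 were measured, with 22 lower, 1 higher and 2 unchanged means. All induced arrays lay below both uninduced arrays in 17 of them and above in 0, beside 3.08% and 1.65% of all genes. The median log2 difference was -0.23, or 1.17-fold lower, beside 0 over all genes. No gene of the list passed when adjusted over all genes (limma; adjusted p = 1 for each), with 16 lower and 0 higher at an unadjusted p under 0.05, beside 0.772% of all genes lower and 0.301% higher at that level. The list was chosen with these results known, and lower means of many of its genes are no independent evidence.

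P4ha1, which encodes a collagen prolyl hydroxylase, was at 6.68 and 6.73 without DOX and at 6.17, 6.28 and 6.22 with DOX, a log2 difference of -0.48 (standard error 0.06). Bnip3, a mitophagy receptor gene, was at 8.06 and 7.86 and then at 7.24, 6.82 and 7.18, which is -0.88 on the log2 scale (standard error 0.14). Both genes separated the groups, and both differences exceeded the range within either group. Ddit4, an inhibitor of mTORC1 signalling, had -0.50 ± 0.08 (standard error), and the glycolytic gene Tpi1 had -0.31 ± 0.06 (standard error). Against these, Egln3 was lower by about as much as Bnip3, and Egln1 by about as much as Tpi1. Vegfa, the angiogenic factor gene, was at -0.12 and Pdk1, a kinase gene that limits pyruvate entry into mitochondria, at -0.04. Car9, a carbonic anhydrase gene that is a sensitive HIF target, had the same low value, 3.44, on all arrays. By RefSeq promoter windows, 21 of 22 listed target genes with a window (95.5%) had the ACGTG or GCGTG core, against 41.5% of all genes. The windows were not matched for GC content. The genes were listed as known HIF targets, so a high share with the core is no evidence drawn from these arrays.

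**Figure D3:**
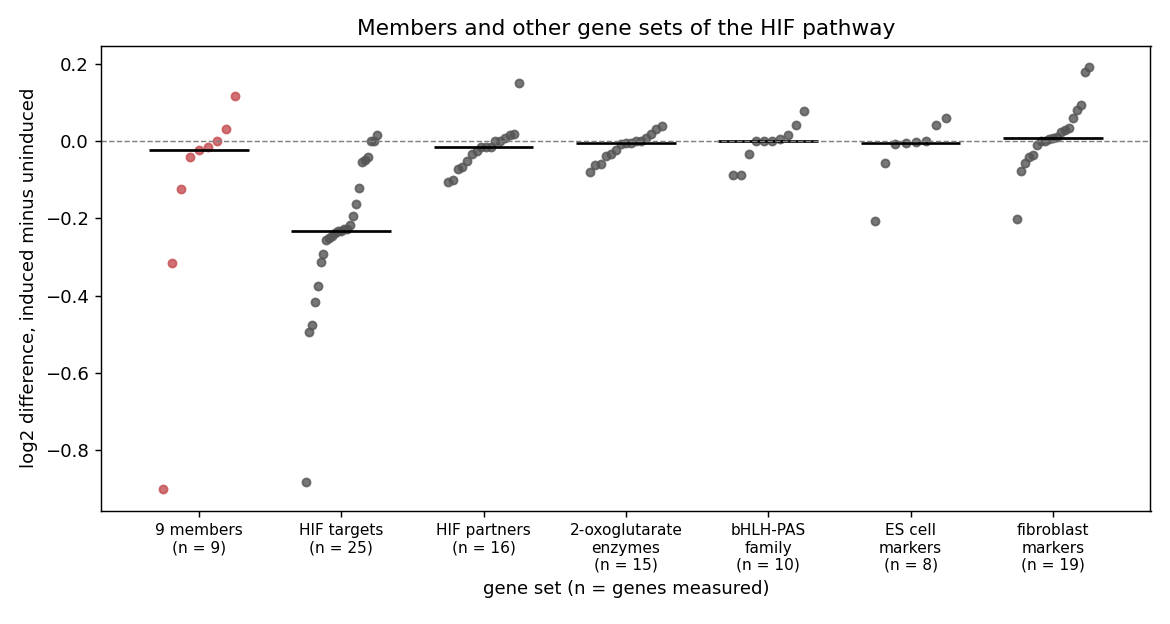
Log2 difference, induced minus uninduced, of each measured gene (points) in the 9 members and in 6 other gene sets, with a black bar at the median of each set. HIF targets have a median of -0.23 with 22 of 25 genes below 0, while the medians of HIF partners, 2-oxoglutarate enzymes, bHLH-PAS genes, ES cell markers and fibroblast markers lie between -0.01 and 0.01.

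Markers of cells that could share the culture gave these values beside the lower Egln3 and Egln1. Of 19 measured fibroblast markers the mean was lower in 6 and higher in 11, the median difference was 0.0078 and the lowest single value was 2.29. The collagen-crosslinking enzyme gene Lox, itself known as a HIF target, was at -0.20 and the smooth muscle genes Tagln and Acta2 at 0.19 and 0.18, and Fap was at -0.08. With the fibroblast mean as a covariate, Egln3 was at -0.74. Endothelial markers had a median of 0.01 over 8 genes (Esam at -0.13, Egfl7 at 0.06, Emcn at 0.05 and Tek at 0.04), and primitive endoderm markers one of 0.01 over 8 genes (Lama1 at -0.08, Gata6 at 0.08, Foxa2 at -0.10 and Pdgfra at 0.06). Among 8 ES cell markers, means were lower in 5 and higher in 2, with Tdgf1, the Nodal coreceptor gene, at -0.21, Dppa5a at 0.06, Nanog at -0.06 and Pou5f1 at 0.04. No gene of these 4 lists passed (limma, with 1 fibroblast and 1 ES cell marker, Lox and Tdgf1, lower at an unadjusted p under 0.05 and 0 higher). Of all genes, 0.772% were lower and 0.301% higher at that level, and Satb1 alone passed. Means were lower in 45.3% and higher in 39.6% of all genes. All induced arrays lay below both uninduced arrays in Lox, Tdgf1 and Lama1 and above them in Gata6, beside 3.08% and 1.65% of all genes. The fibroblast mean, which includes Lox, was the only marker value used as a covariate. The part of endothelial, primitive endoderm and ES cell markers in the values of the hydroxylase genes was not tested. The covariate fit on 5 arrays does not settle the part of fibroblasts.

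Genes with the profile closest to Egln3 and Egln1 were found by the root mean square distance over the 5 arrays between log2 values centred on the mean of each gene. This describes the 5 arrays alone, and the same difference between groups drives it. Bnip3 was nearest to Egln3, at a distance of 0.07 against a median of 0.46 over all genes. It shared with Egln3 the lowest value on induced array 2. Next came the zinc finger gene Sall1 at 0.16, Jam2, which encodes a tight junction adhesion protein, at 0.19, Prelid2 at 0.24 and the uridine phosphorylase gene Upp1 at 0.24. Their log2 differences were -0.66 for Sall1, -0.79 for Jam2, -0.47 for Prelid2 and -0.45 for Upp1.

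Other genes lay nearest to Egln1. They were Enox1 at a distance of 0.03, the orphan nuclear receptor gene Nr5a2 at 0.04, the IGF-binding protein gene Igfbp2 at 0.04, the tubulin-binding stathmin gene Stmn2 at 0.04 and the RNA polymerase II subunit gene Polr2j at 0.05, against a median of 0.17 over all genes. Each had its lowest value on induced array 3, as Egln1 did. Their differences ran from -0.32 in Enox1 to -0.22 in Polr2j. On the list of HIF targets used here, which was chosen with results known, are 0 of these 5 genes and 1 of the 5 nearest to Egln3, Bnip3. The list holds only 25 of the 19938 genes measured, so 0 of 5 says nothing about the genes near Egln1.

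**Figure D4:**
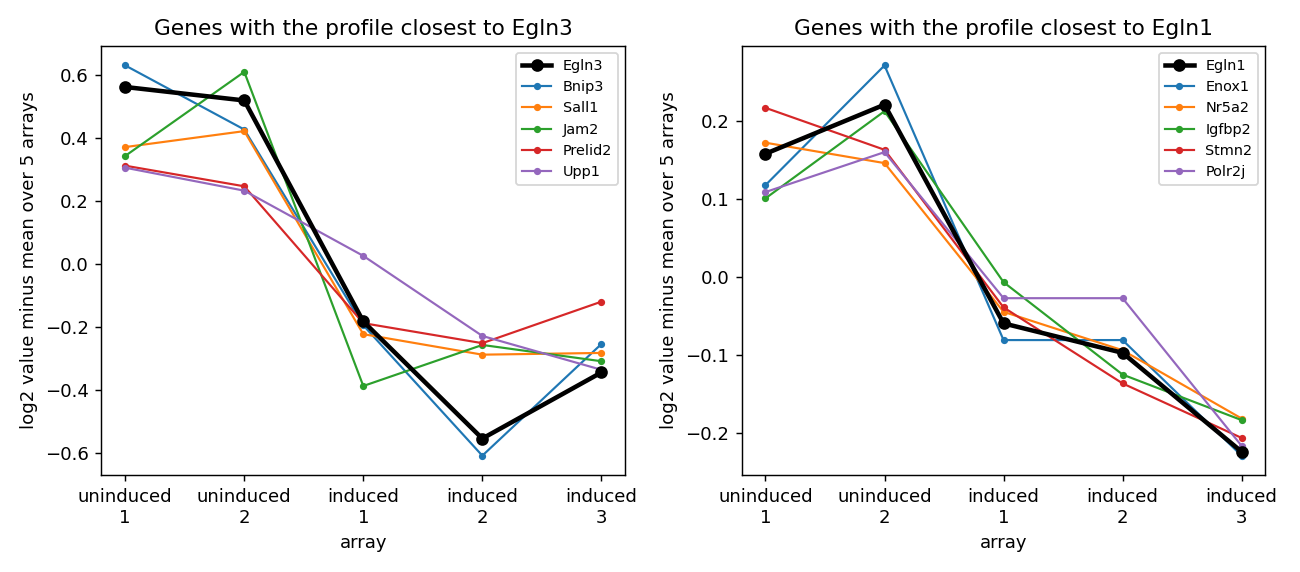
Log2 values of Egln3 (left) and Egln1 (right) in black, and of the 5 genes with the closest profile in colour, each minus its own mean over the 5 arrays; lines join the values of a gene and carry no order of arrays. Bnip3 runs closest to Egln3, with both lowest on induced array 2, and all 5 genes beside Egln1 are lowest on induced array 3.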

How the data were processed

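The authors deposited log2 values for 35557 probe sets on 5 arrays, made with RMA (background correction, normalization between arrays, summary per probe set) per the submitters' processing notes, with no version. No other software and no build is given in the sources used here. The log2 scale was read from the values (0.79 to 13.1).

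Of the probe sets, 21789 had 1 gene symbol, 1621 several and 12147 none in the array's annotation; 21698 matched the RefSeq gene table (GRCm38.p6). The probe set with the highest mean stood for a gene, with no filter on low values.

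Many genes repeat exact values between arrays, which makes spreads too small. Genes were therefore tested with limma 3.58.1 (R 4.3.3) with the prior spread (SD 0.086, 2.87 degrees of freedom) from the 1800 genes with 5 distinct values applied to all, Benjamini-Hochberg adjustment and a threshold of 0.05. Standard errors come from the same fit, so for genes with repeated values they rest mostly on that prior and not on the spread of the gene. The script was tested on simulated data.

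The members, lists and tests were chosen with earlier results of these data known. Named besides the members and Satb1 were up to 4 genes per list with the smallest p and, for the 2 members with the largest differences, the 5 nearest profiles. Eno1, Hsp90ab1, Rack1, Npas2, Bmal2 and Fbn1 were not matched to a probe set with 1 symbol. Vegfa, Pdk1 and Car9 were named after their values were seen. Same-numbered arrays were not shown to be paired.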

Additional observations from a re-analysis of the deposited data

How the results depend on the processing

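Every alternative was planned, with earlier results of these data known. The differences of Egln3 and Egln1 were negative in all 10 alternatives (-0.99 to -0.74 and -0.35 to -0.27), as was the mean of the prolyl hydroxylases. The latter was -0.34 with the fibroblast covariate, where its contrast with the HIF subunits was also -0.34; the cause was not tested. With single arrays left out they ran from -0.45 to -0.38 and from -0.46 to -0.38. The mean of the HIF subunits ran from -0.033 to 0.052, since it rests on the uninduced arrays. The HIF target median ran from -0.24 to -0.20, was -0.20 with the covariate and -0.21 with the title number as a replicate block. In that block induced array 3 has a number of its own and adds nothing; correlations of same-numbered deviations were -0.0063 and 0.0063, so no pairing is shown.

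Against 1 higher and 0 lower genes, the higher count was 0 with centred arrays, quantile normalization applied again, the replicate block and the fibroblast covariate, with Satb1 at adjusted p from 0.056 to 0.113 (limma). Centring and quantile normalization break ties, so 11269 and 19145 genes, not 1800, set the prior. The usual eBayes prior and eBayes with trend and robust each gave 2 higher and 1 lower, Satb1 not among them (adjusted p = 0.229 and 0.283), and genes above the median level gave 1 lower. Leaving out single arrays gave 1 higher and 0 lower each time. No HIF target was called lower under any of the 14 alternatives. Fits without an uninduced array assume that the lone one varies like the induced ones.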
